A study of Mus musculus with 61 samples.

Results

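Lipid-associated macrophages are the macrophages of obese fat tissue that sit around dying, overfilled fat cells, take up their lipid and break it down in lysosomes. In mice and humans they are told from resident macrophages by the lipid receptor gene Trem2 and a set of genes expressed with it. The 9 genes described here, Trem2, Spp1, Gpnmb, Atp6v0d2, Itgax, Cd9, Lgals3, Mmp12 and Dcstamp, belong to that set. They were picked by symbol from a table of 21169 genes measured in adipose RNA of 61 libraries, and all 9 were found. The libraries come from the 8 inbred strains that founded the Diversity Outbred mice. In all groups the mice had eaten a high-fat, high-sugar diet, labelled 45 percent fat, so no group on another diet is available for comparison here. NZO (n = 8) is an inbred strain known for obesity, WSB (n = 8), Cast (n = 7) and PWK (n = 8) are derived from wild mice, and 129 (n = 7), AJ (n = 7), B6 (n = 8) and NOD (n = 8) are classical laboratory strains. The labels state neither age, sex, depot nor batch.

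A first group of 4 proteins, TREM2, ITGAX, CD9 and GPNMB, sits in membranes. TREM2 is a receptor that binds lipids and lipoproteins and signals through the adaptor DAP12, the product of Tyrobp. ITGAX, also called CD11c, is an integrin alpha chain that pairs with the beta chain encoded by Itgb2 and is also made by dendritic cells. CD9 is a tetraspanin found on many cell types, and GPNMB is a glycoprotein of lysosomal and cell membranes. Another 3 are released or act outside the cell: osteopontin (Spp1), which binds CD44 and integrins, galectin-3 (Lgals3), which binds sugar chains, and the macrophage elastase MMP12. The last pair is known from osteoclasts, since ATP6V0D2 is a subunit of the vacuolar proton pump that acidifies lysosomes and DCSTAMP is needed for macrophages to fuse into multinucleated cells.

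All 9 genes are protein coding, and their positions on build GRCm38 come from the deposited annotation. Trem2 lies on chromosome 17 (48346401 to 48354147), Itgax on chromosome 7 (128129547 to 128150657), and Gpnmb (49036546 to 49070929) and Cd9 (125460266 to 125494791) on chromosome 6. Spp1 lies on chromosome 5 (104435118 to 104441050), Lgals3 on chromosome 14 (47367751 to 47386160) and Mmp12 on chromosome 9 (7344381 to 7369499). Atp6v0d2 lies on chromosome 4 (19876841 to 19922605) and Dcstamp on chromosome 15 (39745932 to 39760934). Cd9 and Atp6v0d2 are read from the minus strand and the other 7 from the plus strand.

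Promoter windows of 300 bases, from 250 before to 50 after the start of transcription, were given by RefSeq on build GRCm38.p6 for 7 of the 9 genes, without Atp6v0d2 and Dcstamp. Since most of these genes moved together across libraries, the windows were searched on both strands for the letters of 5 motifs of macrophage transcription factors. TGANTCA, the AP-1 motif, was found in 3 of 7 windows and in 7.81% of all 32851 windows of the table. GAGGAAGT, a PU.1 motif, was found in 2 of 7 windows against 3.2% of all, and TGTGGT, the RUNX motif, in 3 of 7 against 16.8%. CACGTG (7.15% of all windows) and TCATGTG (3.77%), which factors of lysosomal genes bind, were in none of the 7. No 2 of the motifs overlapped in these windows.

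The 5 windows that held a motif are shown 5′ to 3′ up to 30 bases after the start, with the motif letters in capitals. They lie at chr17:48346151-48346430 for Trem2, chr6:49036268-49036547 for Gpnmb, chr7:128129300-128129579 for Itgax, chr5:104434861-104435140 for Spp1 and chr9:7344147-7344426 for Mmp12, all on the plus strand. The AP-1 letters begin at base -9 from the start in Trem2, 9 in Gpnmb and -56 in Itgax. RUNX letters begin at -175 in Gpnmb, 14 in Itgax and -128 in Spp1, and PU.1 letters at -113 in Spp1 and -88 in Mmp12. A match of letters is a description of the sequence and not evidence that a factor binds there.
Trem2: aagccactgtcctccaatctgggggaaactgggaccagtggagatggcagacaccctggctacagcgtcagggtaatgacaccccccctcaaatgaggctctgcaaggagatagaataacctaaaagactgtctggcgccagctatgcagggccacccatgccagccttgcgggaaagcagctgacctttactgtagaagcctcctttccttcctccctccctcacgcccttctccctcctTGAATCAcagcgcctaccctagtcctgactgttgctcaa
Gpnmb: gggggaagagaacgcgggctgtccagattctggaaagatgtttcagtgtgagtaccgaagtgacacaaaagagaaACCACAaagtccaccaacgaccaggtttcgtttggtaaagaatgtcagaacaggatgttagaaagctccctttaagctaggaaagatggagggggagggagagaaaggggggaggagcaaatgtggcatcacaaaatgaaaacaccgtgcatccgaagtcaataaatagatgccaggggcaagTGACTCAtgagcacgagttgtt
Itgax: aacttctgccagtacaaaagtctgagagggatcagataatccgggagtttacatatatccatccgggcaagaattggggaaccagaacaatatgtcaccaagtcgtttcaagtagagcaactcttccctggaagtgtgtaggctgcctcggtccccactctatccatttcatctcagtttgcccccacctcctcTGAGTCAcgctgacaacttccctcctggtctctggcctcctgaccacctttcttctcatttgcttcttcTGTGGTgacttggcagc
Spp1: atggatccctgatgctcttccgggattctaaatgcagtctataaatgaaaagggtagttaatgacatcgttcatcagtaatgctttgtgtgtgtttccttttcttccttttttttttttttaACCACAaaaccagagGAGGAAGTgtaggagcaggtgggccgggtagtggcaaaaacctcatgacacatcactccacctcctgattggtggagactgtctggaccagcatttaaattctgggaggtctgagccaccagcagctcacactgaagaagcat
Mmp12: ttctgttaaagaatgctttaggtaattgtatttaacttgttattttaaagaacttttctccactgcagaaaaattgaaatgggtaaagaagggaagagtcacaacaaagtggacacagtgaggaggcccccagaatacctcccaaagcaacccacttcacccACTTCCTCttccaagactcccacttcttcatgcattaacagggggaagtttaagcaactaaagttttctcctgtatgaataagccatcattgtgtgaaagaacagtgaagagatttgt

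Library totals ran from 19851580 to 61277576 counts. Levels are given as CPM, the usual counts scaled to library size, here after TMM factors had made libraries comparable. Mature fat cell markers summed to between 12229 and 33005 CPM, so fat tissue was present in each library. Some libraries stood apart from others of their strain. NZO replicate 8 held 3536 CPM of B cell markers and 3493 CPM of neutrophil markers, against NZO medians of 379.8 and 39.5 CPM. Cast replicates 5 and 6 held 1757 and 1748 CPM of resident macrophage markers, against a Cast median of 866 CPM. Markers of genital ducts passed 300 CPM in 6 libraries, liver markers passed 500 CPM in 6 and muscle markers passed 300 CPM in 3. Only 3 of the 10 genital duct markers were among the genes measured, so that sum rests on them. Marker sums and Xist are scaled by library totals alone.

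An F-test over strains in edgeR called all 9 genes, and 89.9% of the 18603 genes tested. The share of variance in log2 CPM that lay between strains ran from 50% for Cd9 to 73.7% for Trem2, beside a median of 48.7% over all genes tested. Each strain was then set against the mean of the other 7, where a call means an adjusted p (Benjamini-Hochberg) under 0.05. NZO was higher for all 9 genes and WSB lower for all 9. Cast split the set, with 2 genes higher, 4 lower and 3 not called. In bulk tissue a strain with fewer of these macrophages and a strain with less RNA of these genes per macrophage cannot be told apart. Every library of the 9 genes is shown in the plot of levels by strain.

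**Figure D1:**
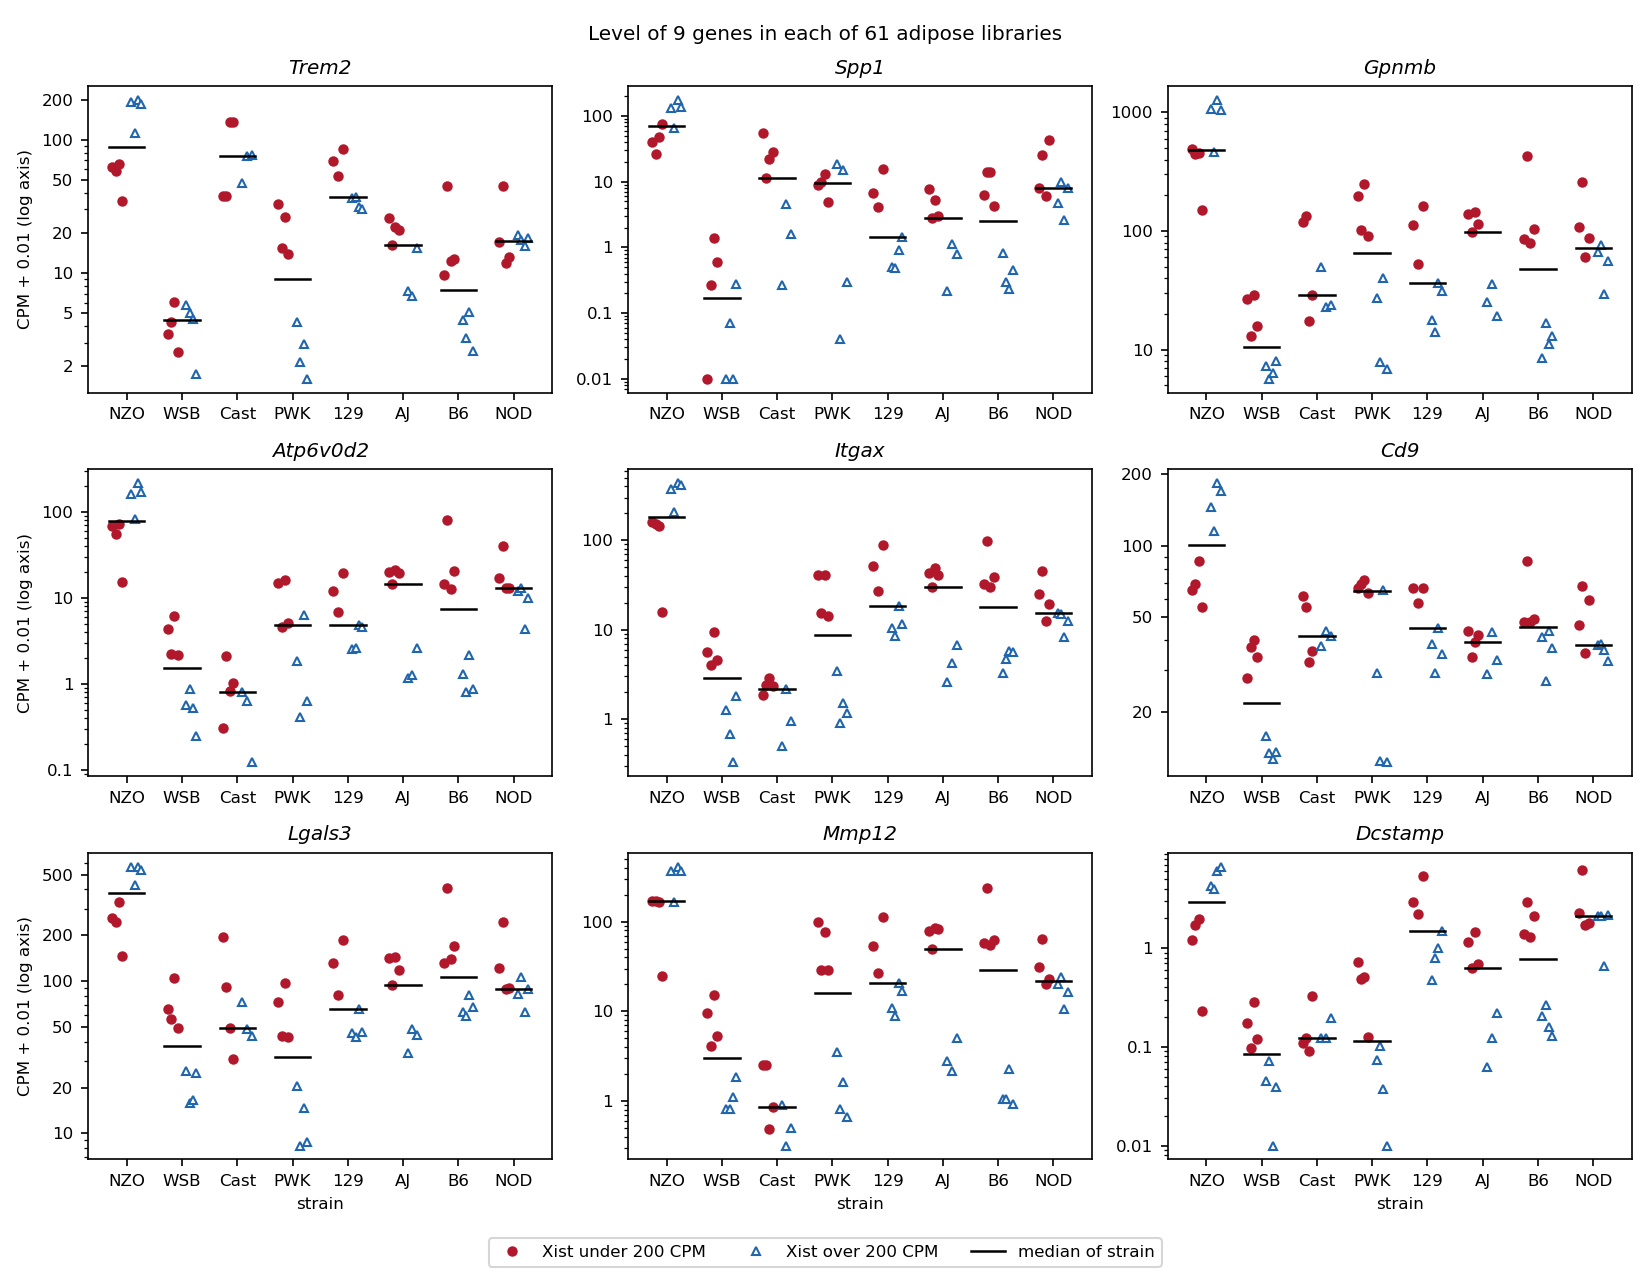
Level of each gene (CPM plus 0.01, log axis) in each of 61 libraries, by strain. Filled circles are the 31 libraries with Xist under 200 CPM, open triangles the 30 with Xist over 200 CPM, and bars the strain medians. NZO has the highest median for each of the 9 genes, and Trem2 in Cast is near NZO while Itgax, Mmp12 and Atp6v0d2 in Cast are at the bottom.

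Among Trem2, Itgax, Cd9 and Gpnmb, Itgax showed the largest difference in NZO. It stood at 15.7, 181 and 433 CPM in NZO (lowest, median and highest library), while the medians of the other strains ran from 2.15 CPM in Cast to 30.3 CPM in AJ. The lowest value belonged to replicate 8, and the other 7 NZO libraries, from 143 CPM upward, lay above every library of the other strains, whose highest was 98.3 CPM in B6. Itgax was higher in NZO by 4.27 ± 0.40 on the log2 scale (SE, adjusted p = 1.23e-13), or 19.3-fold. Its read estimates were not whole in 77% of libraries, so its level is uncertain, and the reason was not tested. Gpnmb stood at 149.5, 477 and 1269.6 CPM in NZO, against strain medians of 10.5 CPM in WSB to 97.2 CPM in AJ. That is 3.47 ± 0.39 higher on the log2 scale (adjusted p = 5.7e-11), although a B6 library reached 426 CPM.

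Trem2 itself stood at 34.9, 88.9 and 199 CPM in NZO, with strain medians elsewhere from 4.42 CPM in WSB to 75.2 CPM in Cast. It was higher in NZO by 2.61 ± 0.30 on the log2 scale (adjusted p = 8.11e-11), but NZO and Cast, the next strain in order, were not called apart (0.54 ± 0.49, adjusted p = 0.349, in a pair where 60.5% of genes were called). The groups overlapped, since the highest Cast library held 136 CPM. Cd9 showed the smallest difference of the 9 genes in NZO, 1.43 ± 0.19 (adjusted p = 1.05e-08), with 55.3, 100.2 and 183 CPM in NZO against strain medians of 21.8 CPM in WSB to 64.3 CPM in PWK. Cd9 estimates were not whole in 62.3% of libraries.

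Osteopontin, galectin-3 and the elastase rose in NZO as well. Spp1 stood at 26.0, 69.5 and 175 CPM in NZO, against strain medians of 0.16 CPM in WSB to 11.5 CPM in Cast, and was higher by 4.20 ± 0.47 (adjusted p = 5.44e-11), or 18.4-fold. Lgals3 stood at 147, 378 and 565 CPM in NZO, against strain medians of 31.6 CPM in PWK to 107 CPM in B6, and was higher by 2.32 ± 0.29 (adjusted p = 8.1e-10). Mmp12 stood at 24.9, 170.3 and 413 CPM in NZO, against strain medians of 0.837 CPM in Cast to 49.3 CPM in AJ, and was higher by 3.78 ± 0.51 (adjusted p = 8.64e-09). For Mmp12 the lowest library was again replicate 8, and the other 7 held at least 166 CPM, a range that 1 B6 library with 239.7 CPM entered.

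The fusion and proton pump genes completed the set in NZO. Atp6v0d2 stood at 15.2, 77.8 and 217 CPM in NZO, against strain medians of 0.785 CPM in Cast to 14.4 CPM in AJ, and was higher by 4.17 ± 0.42 (adjusted p = 1.26e-12), or 18.0-fold. Dcstamp had the lowest level of the set, with 0.221, 2.95 and 6.67 CPM in NZO against strain medians of 0.0741 CPM in WSB to 2.09 CPM in NOD, and was higher by 2.61 ± 0.40 (adjusted p = 2.24e-07). For Dcstamp 7 of 8 NZO libraries lay above the median of all other libraries, and for each of the other 8 genes 8 of 8 did. The median difference of the 9 genes in NZO was 3.47, beside -0.0193 over all genes tested, of which 27.2% were called higher and 26.6% lower. Without NZO replicate 8 the 9 genes were still called, with Itgax at 4.46 and Mmp12 at 3.96.

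**Figure D2:**
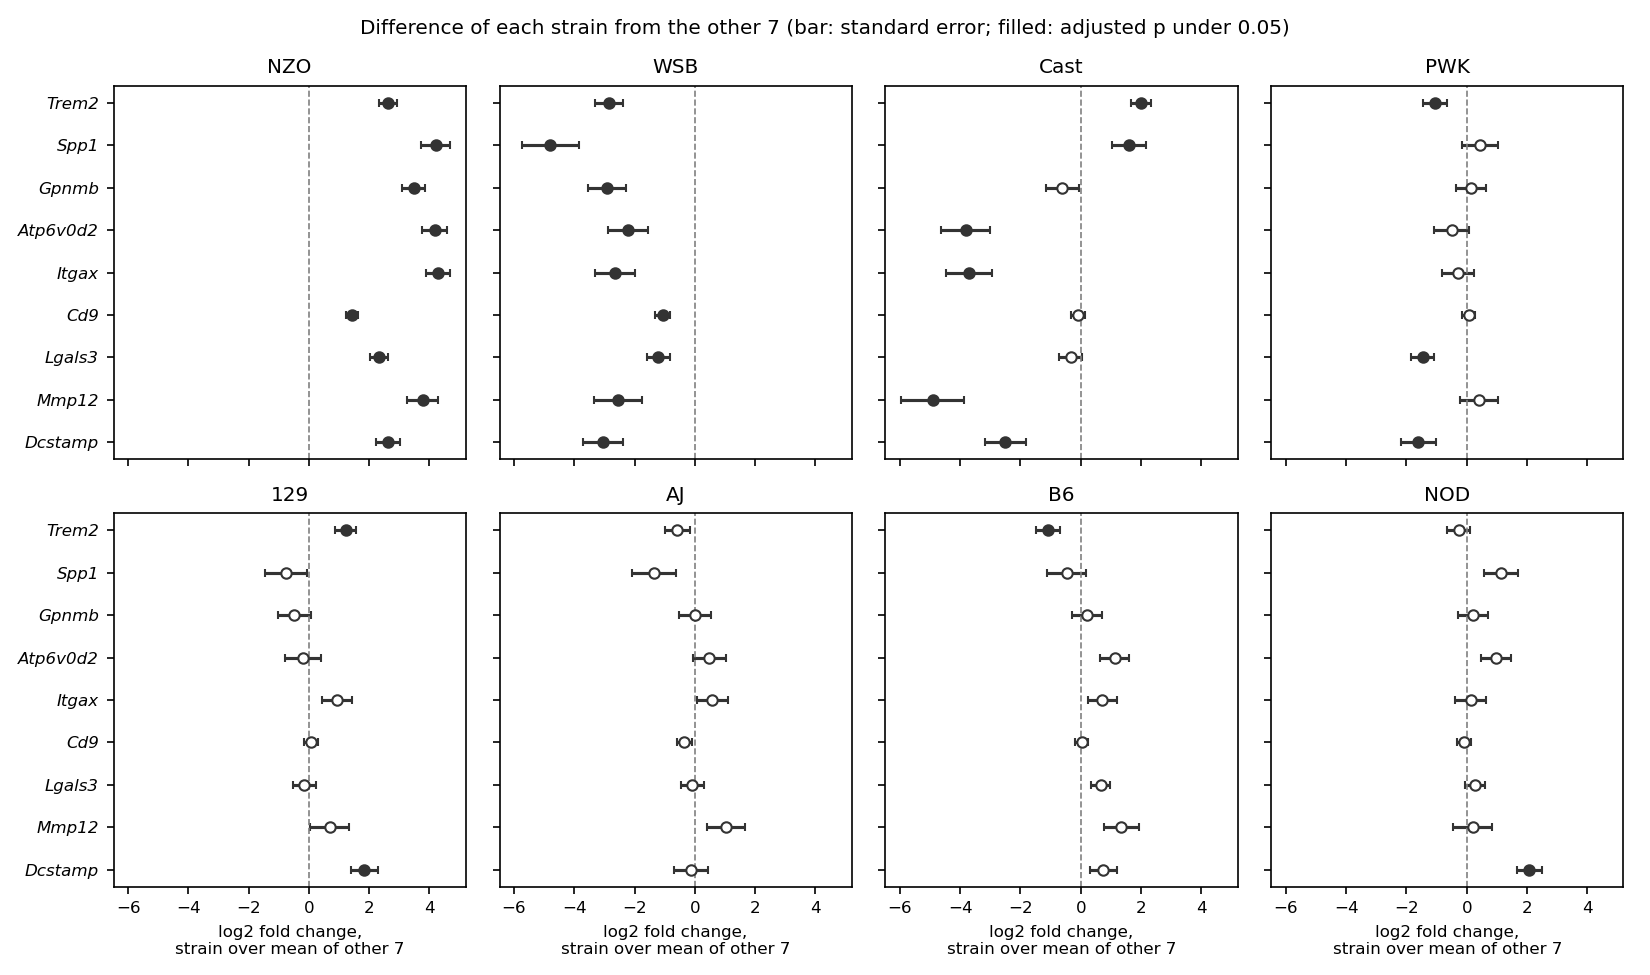
Log2 fold change of each strain over the mean of the other 7 (horizontal axis) for the 9 genes (vertical axis), by strain. Bars are standard errors, and filled points have an adjusted p under 0.05. NZO points lie between 1.43 and 4.27, WSB points between -4.79 and -1.07, and Cast points on both sides of 0.

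Compared per length of their exons, the members kept different places in the set. In NZO the median level was 203 CPM per kilobase for Lgals3, the highest of the set, 73.2 for Gpnmb, 49.0 for Cd9, 42.2 for Spp1, 37.8 for Itgax, 28.7 for Atp6v0d2, 23.5 for Mmp12, 18.0 for Trem2 and 1.11 for Dcstamp. In WSB, Cd9 stood at 10.7 CPM per kilobase and Spp1 at 0.0974, and in Cast Trem2 stood at 15.2 and Itgax at 0.449. By these levels per length Trem2 was the eighth of the 9 genes in NZO and the third in Cast. The order between genes depends on the length used, here the annotated exonic bases of each gene (4946 for Trem2, 1858 for Lgals3). The transcript made in this tissue can be shorter, and other lengths were not tried.

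In WSB all 9 genes were lower, and WSB had the lowest fitted mean of the 8 strains for 5 of them, Trem2, Spp1, Gpnmb, Cd9 and Dcstamp. Spp1 stood at 0, 0.16 and 1.4 CPM in WSB (lowest, median and highest library) and differed from the other 7 strains by -4.79 ± 0.94 on the log2 scale (adjusted p = 2.86e-05). Of the 3 libraries in the study with no Spp1 count, all were WSB. Dcstamp stood at 0, 0.0741 and 0.277 CPM in WSB, at or near the limit of counting, with a log2 difference of -3.04 ± 0.66 (adjusted p = 0.000124). Gpnmb (-2.91 ± 0.63) stood at 5.68, 10.5 and 29.1 CPM in WSB, and Trem2 (-2.84 ± 0.47) at 1.73, 4.42 and 6.04 CPM.

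The narrow range of Trem2 in WSB lay wholly below the 30.3 to 85.4 CPM of 129 and the 37.9 to 136 CPM of Cast. Itgax differed by -2.65 ± 0.65 in WSB, Mmp12 by -2.55 ± 0.81, Atp6v0d2 by -2.23 ± 0.66, Lgals3 by -1.21 ± 0.38 and Cd9 by -1.07 ± 0.24, with adjusted p from 0.000216 to 0.00728. For 8 of the genes all 8 WSB libraries lay below the median of the others, and for Lgals3 7 of 8 did. The median over the 9 genes was -2.65, beside -0.0104 for all genes tested, of which 23.7% were called lower in WSB and 25.6% higher.

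Cast was higher for Trem2 and, less firmly, for Spp1, and lower or not called for the other 7. Trem2 stood at 37.9, 75.2 and 136 CPM in Cast and was higher by 2.0 ± 0.32 on the log2 scale (adjusted p = 6.25e-07), with 7 of 7 libraries above the median of the others. Spp1 stood at 0.262, 11.5 and 55.7 CPM in Cast and was higher by 1.59 ± 0.57 (adjusted p = 0.0143), with 4 of 7 libraries above. The Spp1 call rested on Cast replicate 5, the library with 55.7 CPM, without which the difference was 0.96 (adjusted p = 0.199). It was also lost with the replicate number as a block (1.37, adjusted p = 0.0559) and with limma on the deposited log2 values (0.60, adjusted p = 0.245). Of all genes tested 29.6% were called higher in Cast and 26.6% lower.

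The elastase, proton pump, integrin and fusion genes fell in Cast. Mmp12 stood at 0.308, 0.837 and 2.53 CPM in Cast and differed by -4.91 ± 1.04 (adjusted p = 6.45e-05), or 30-fold lower. Atp6v0d2 stood at 0.112, 0.785 and 2.09 CPM in Cast (-3.82 ± 0.81, adjusted p = 6.34e-05), and Itgax at 0.486, 2.15 and 2.84 CPM (-3.7 ± 0.76, adjusted p = 3.89e-05). Dcstamp stood at 0.0796, 0.112 and 0.317 CPM in Cast (-2.5 ± 0.67, adjusted p = 0.00124). In all 4 cases 7 of 7 Cast libraries lay below the median of the others, while they overlapped with the lowest WSB libraries. Gpnmb (-0.61 ± 0.55), Lgals3 (-0.34 ± 0.37) and Cd9 (-0.09 ± 0.23) were not called in Cast. Without Cast replicates 5 and 6, Gpnmb stood at -1.6 (adjusted p = 0.0502), Trem2 at 2.27 and Mmp12 at -5.91.

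Cast also stood apart in the balance of Trem2 with Itgax and with Mmp12. Trem2 counts per Itgax count ran from 15.9 to 98.3 over the 7 Cast libraries and from 0.301 to 14.2 over the 54 others, with no overlap. Trem2 per Mmp12 ran from 15.0 to 286 in Cast and from 0.166 to 7.26 in the others. Trem2 per Gpnmb overlapped, with 0.282 to 7.76 in Cast and 0.0728 to 2.61 in the others. Trem2 per Tyrobp, the gene of its adaptor, had medians of 5.22 in Cast and 2.16 in 129, and of 0.251 to 1.07 in the other 6 strains. It overlapped too, with 1.39 to 8.76 in Cast and 0.137 to 2.8 in the others. These ratios were looked at after the levels had been seen and were not tested. Cast carries many sequence differences from the reference genome, and how reads of that strain were aligned is not given in the sources used here, and its part in the low values was not tested.

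**Figure D3:**
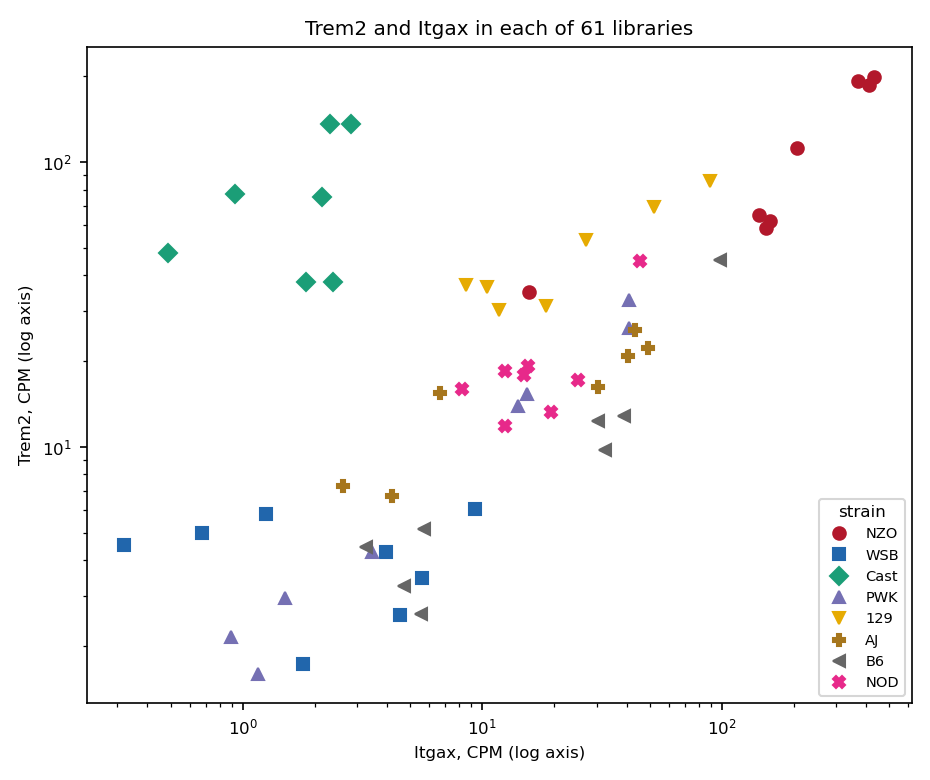
Trem2 (vertical, CPM, log axis) against Itgax (horizontal, CPM, log axis) in each of 61 libraries, with a symbol per strain. The 7 Cast libraries hold 37.9 to 136 CPM of Trem2 at 0.486 to 2.84 CPM of Itgax and lie apart from the others.

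The other 5 strains differed from the rest in few members. In 129, Dcstamp (1.84 ± 0.44, adjusted p = 0.00164) and Trem2 (1.22 ± 0.35, adjusted p = 0.00792) rose in 7 of 7 libraries each, where 10.8% of all genes were called higher and 7.78% lower. Trem2 stood at 30.3, 37.1 and 85.4 CPM in 129, with its lowest library above the highest of WSB and the highest of AJ. Both calls ended without the 3 libraries of 129 over 300 CPM of genital duct markers, with Dcstamp at 0.71 (adjusted p = 0.486) and Trem2 at 0.69 (adjusted p = 0.354). Those 3 are also the only 129 libraries with low Xist, so that the markers and Xist cannot be told apart there. In NOD, where 14.7% of genes were called higher, Dcstamp rose (2.08 ± 0.42, adjusted p = 0.00011), with 0.654, 2.09 and 6.14 CPM.

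PWK fell in Dcstamp (-1.6 ± 0.57, adjusted p = 0.0201), Lgals3 (-1.46 ± 0.39, adjusted p = 0.00174) and Trem2 (-1.04 ± 0.40, adjusted p = 0.0293), where 19.0% of genes were called lower. Lgals3 stood at 8.32, 31.6 and 97.8 CPM in PWK, the lowest strain for that gene. Without the 3 PWK libraries over 500 CPM of liver markers none of the 3 was called, with Dcstamp at -1.42 (adjusted p = 0.108), Lgals3 at -1.1 (adjusted p = 0.052) and Trem2 at -0.67 (adjusted p = 0.262). B6 fell in Trem2 (-1.1 ± 0.40, adjusted p = 0.0343, 11.7% of genes lower), with 2.58, 7.44 and 45.3 CPM. The value of 45.3 CPM was replicate 6, which was rich in genital duct and liver markers, and without it the difference was -1.83. Without any of the other 7 B6 libraries the difference stayed between -1.11 and -0.95 and was no longer called. AJ was called for 0 members in edgeR, in DESeq2 and in limma and for 0 at an unadjusted p under 0.05, where 13.4% of genes were called higher and 9.59% lower. The member nearest to a call in AJ was Spp1 (-1.35 ± 0.74, adjusted p = 0.186), with 0.21, 2.75 and 7.77 CPM.

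Set against single strains, NZO was higher for 9 members than WSB (55.9% of all genes called in either direction), PWK (55.7%) and AJ (36.2%). It was higher for 8 than 129 (40.4%), B6 (36.5%), NOD (38.1%) and Cast, the exceptions being Dcstamp in 129 and NOD, Mmp12 in B6 and Trem2 in Cast. WSB was lower for 9 members than B6 (47.2%) and NOD (44.5%), for 7 than 129 (37.2%) and AJ (42%), for 6 than PWK (40.8%) and for 4 than Cast (41.6%). Cast was lower for Mmp12, Itgax and Atp6v0d2 than AJ (50.5%), B6 (52.5%), NOD (52.2%), 129 (48.2%) and PWK (44.8%), and higher for Trem2 than 4 of these, 129 being the exception.

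Among the remaining strains few members were called. Between 129, AJ, B6 and NOD few of all genes were called either (9.8% to 13.4%), so this is not particular to the members. PWK differed in 2 members from 129 (33.6%), B6 (37.8%) and NOD (39.9%) and in 1, Lgals3, from AJ (37.7%). Trem2 was the gene in which 129 differed from AJ (9.8%) and from B6 (10.4%). Between 129 and NOD (10.5%), AJ and B6 (11.7%), AJ and NOD (13.4%) and B6 and NOD (10.3%) edgeR called 0 members, with 1, 0, 2 and 0 at an unadjusted p under 0.05 and 0, 0, 1 and 0 called by DESeq2.

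NZO was the highest strain by fitted mean for each of the 9 genes, and the order below it differed between genes. Over the 28 pairs of strains Trem2 differed in 19, Itgax in 17, Mmp12 and Dcstamp in 16 each, Atp6v0d2 in 15, Spp1 in 14, Gpnmb in 13, and Cd9 and Lgals3 in 12 each. Trem2 followed the order NZO, Cast, 129, NOD, AJ, PWK, B6, WSB, in which the step from B6 to WSB was called (1.53 ± 0.50, adjusted p = 0.0107) and no other. Itgax followed NZO, 129, B6, AJ, NOD, PWK, WSB, Cast, with called steps from NZO to 129 (2.92 ± 0.76) and from PWK to WSB (2.06 ± 0.72). Mmp12 ran NZO, B6, AJ, 129, PWK, NOD, WSB, Cast, with the step from NOD to WSB called (2.41 ± 0.91).

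Gpnmb ran NZO, NOD, B6, PWK, AJ, 129, Cast, WSB, with called steps from NZO to NOD (2.85 ± 0.70) and from Cast to WSB (2.01 ± 0.69). Spp1 ran NZO, Cast, NOD, PWK, B6, 129, AJ, WSB, with called steps at both ends, 2.28 ± 0.87 from NZO to Cast and 3.01 ± 1.0 from AJ to WSB. Atp6v0d2 ran NZO, B6, NOD, AJ, 129, PWK, WSB, Cast, Cd9 ran NZO, PWK, 129, B6, NOD, Cast, AJ, WSB, and Lgals3 ran NZO, B6, NOD, AJ, 129, Cast, WSB, PWK. In these 3 orders the step below NZO was called (2.66 ± 0.74, 1.19 ± 0.29 and 1.45 ± 0.46) and no other. Dcstamp ran NZO, NOD, 129, B6, AJ, PWK, Cast, WSB with no neighbours called apart. In all, 11 of 63 neighbouring pairs differed at an adjusted p under 0.05, so most strains in the middle of an order cannot be ranked at this spread.

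Within strains the 9 genes were spread over a wide range that went with Xist, the noncoding RNA that coats the inactive X chromosome. Xist was at 0.0253 to 52.8 CPM in 31 libraries and at 314 to 744 CPM in 30, with both kinds in each strain. In B6, the 4 libraries with low Xist held 55.3 to 239.7 CPM of Mmp12 and the 4 with high Xist 0.919 to 2.26 CPM. Gpnmb in B6 stood at 79.4 to 426 CPM with low Xist and at 8.58 to 16.7 CPM with high Xist. For each of the 9 genes the low-Xist libraries of B6, and likewise of 129, lay wholly above the high-Xist ones. How many of all genes separate in this way was not counted, so these ranges describe the members alone.

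NZO libraries were ordered the other way. Trem2 stood at 34.9 to 65.4 CPM in the 4 NZO libraries with low Xist and at 112 to 199 CPM in the 4 with high Xist. Itgax stood at 15.7 to 158 CPM and at 205 to 433 CPM in the same libraries, Atp6v0d2 at 15.2 to 73.0 CPM and at 82.7 to 217 CPM, and Lgals3 at 147 to 330.2 CPM and at 425 to 565 CPM. The high-Xist libraries lay wholly above the low-Xist ones for 6 members in NZO, and the other 3 overlapped. Among high-Xist libraries Mmp12 stood at 166 to 413 CPM in NZO, 0.645 to 3.52 CPM in PWK and 0.919 to 2.26 CPM in B6. In Mmp12, WSB and B6 differed widely among low-Xist libraries (4.09 to 15.3 CPM in WSB, 55.3 to 239.7 CPM in B6). Among high-Xist ones they overlapped in Mmp12, where WSB held 0.798 to 1.85 CPM, and in Trem2, Spp1 and Atp6v0d2. For Gpnmb, Itgax, Cd9, Lgals3 and Dcstamp the high-Xist libraries of WSB lay wholly below those of B6. Lgals3, for example, stood at 15.9 to 25.7 CPM in WSB and at 59.2 to 81.3 CPM in B6. For NZO, and for WSB beside B6, the share of all genes that separate in these ways was not counted either.

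The relation was tested, after the pattern had been seen, as a slope of each gene on log2 Xist within each strain in edgeR. Slopes below 0 were called for 8 of 9 genes in B6 (7.19% of all genes tested), 8 in PWK (16.0%), 6 in 129 (4.87%), 6 in AJ (1.41%), 6 in WSB (10.9%) and 2 in Cast (11.4%), and for 0 in NOD (2.67%). In NOD the values overlapped for each gene, its slopes lay between -0.22 and -0.05, and 4 of them passed an unadjusted p under 0.05. Slopes above 0 were called for 5 of 9 genes in NZO, where 5.35% of all genes were called that way: Dcstamp (0.24 ± 0.062), Itgax (0.20 ± 0.059), Trem2 (0.19 ± 0.050), Cd9 (0.13 ± 0.033) and Lgals3 (0.13 ± 0.043, adjusted p = 0.0477). NZO replicate 8, a low-Xist library, held the lowest NZO value of every member but Spp1, which bears on these slopes. NZO replicates 5, 6 and 7, the other low-Xist ones, held 58.8 to 65.4 CPM of Trem2 and 143 to 158 CPM of Itgax. These values lay below those of the high-Xist NZO libraries. In Gpnmb (444 to 489 CPM) and Mmp12 (167 to 171 CPM) the same replicates overlapped with the high-Xist ones. The NZO slope minus the mean of the other 7 slopes was above 0 for all 9 genes (12.3% of all genes tested), from 0.22 ± 0.037 for Cd9 to 0.60 ± 0.084 for Mmp12, with adjusted p from 9.12e-07 to 0.00179. With the mean of pan-macrophage markers as a covariate 3 of the 9 differences were called, Dcstamp (0.35, adjusted p = 0.0139), Itgax (0.33, adjusted p = 0.0113) and Trem2 (0.20, adjusted p = 0.0401). The share of all genes called with that covariate was not counted. Equality of the 8 slopes was refused for all 9 genes, as for 43.7% of genes tested.

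**Figure D4:**
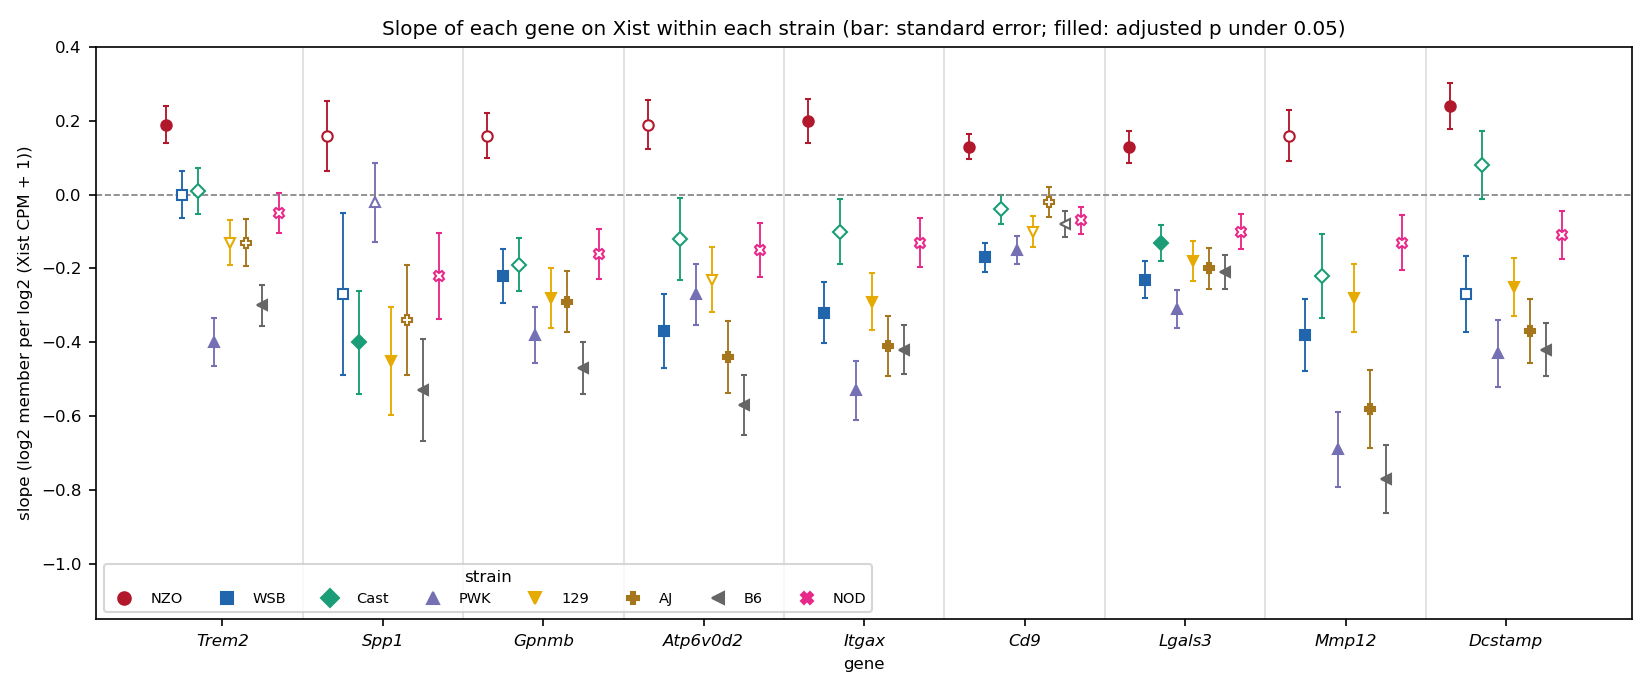
Slope of each gene on log2 (Xist CPM plus 1) within each strain, from edgeR (vertical axis), for the 9 genes (horizontal axis). Bars are standard errors, and filled points have an adjusted p under 0.05. NZO slopes lie above 0 for each gene, between 0.13 and 0.24, and the slopes of the other 7 strains lie between -0.77 and 0.08.

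Other transcripts moved with these libraries too. Lep, the leptin gene, which is known to rise as fat cells enlarge, stood at 2336 to 3129.5 CPM in low-Xist and 427 to 1112 CPM in high-Xist libraries of B6, and at 1077 to 3566 CPM and 121 to 234 CPM in those of PWK. In 129, AJ and NOD the low-Xist libraries also lay above the high-Xist ones in Lep. In NZO it stood at 355 to 2633 CPM with low and at 1638 to 2719.7 CPM with high Xist, so these groups overlapped. Lep overlapped as well in WSB (27.1 to 539 CPM with low and 5.37 to 124 CPM with high Xist). In Cast it stood at 0.72 to 80.6 CPM with low and at 40.5 to 169 CPM with high Xist, again with overlap. Pan-macrophage markers had called slopes above 0 for 5 of 12 genes in NZO. Their slopes below 0 were called for 9 of 12 in Cast, where 2 members had such slopes, for 8 in PWK and 3 in B6, for 1 each in 129 and AJ, and for 0 in WSB and NOD. Genital duct markers passed 300 CPM in 6 low-Xist libraries. Their part in the slopes was not tested, except that without those 6 libraries and the slope of 129 all 9 slope differences were still called. The share of all genes called without them was not counted.

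General macrophage markers followed the same strains. The sum of 12 pan-macrophage markers was 1191 to 3565 CPM in NZO, 231 to 437 CPM in WSB and 266 to 998 CPM in Cast, where it reached 417.6 CPM without replicates 5 and 6. It was 186 to 894 CPM in PWK, 306 to 824 in 129, 454 to 860.4 in AJ, 454 to 1597 in B6 and 475 to 1114 in NOD. In NZO 12 of 12 were higher, with a median of 2.36, led by Ms4a7 (4.31 ± 0.21), an antigen of the macrophage membrane, and Fcgr1 (3.31 ± 0.25), an Fc receptor gene. In WSB 10 of 12 were lower (median -0.90). In Cast 6 were lower and 1, the lipopolysaccharide receptor gene Cd14, was higher (2.12 ± 0.26). Ms4a7 was near 0 in Cast (0.0604 ± 0.0475 CPM, SD, n = 7).

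Macrophages as a whole and resident macrophages did not move alike in NZO. Among 12 markers of resident macrophages 6 were higher and 2 lower in NZO, with the folate receptor gene Folr2 at 2.29 ± 0.11 and the scavenger receptor gene Cd163 at -1.72 ± 0.24. Their sum was 861 to 2066 CPM in NZO, 391 to 711 CPM in WSB and 660.1 to 1757 CPM in Cast. Dendritic cell markers, which matter for Itgax, summed to 136 to 189 CPM in NZO, 65.8 to 109 CPM in WSB and 50.7 to 102 CPM in Cast. Of those that changed most in NZO, Xcr1 (0.87 ± 0.21), Ccr7 (0.86 ± 0.20) and Clec9a (0.85 ± 0.12) rose and Cd209a fell (-1.06 ± 0.25). Their NZO means were only 1.43 to 5.47 CPM, so most of the sum came from other genes of the list. The part of dendritic cells in the Itgax values was not tested. Markers of other immune cells moved with NZO as well, with 10 of 10 for T and NK cells, 6 of 6 for B cells and 6 of 6 for mast cells higher there, and their part in the member differences was not tested. Monocyte markers summed to 103 to 409.5 CPM in NZO, 24.8 to 67.2 CPM in WSB and 27 to 299.8 CPM in Cast. Without NZO replicate 8 and Cast replicates 5 and 6, which hold the tops of these ranges, the monocyte sums reached 183.2 CPM in NZO and 44.73 CPM in Cast, and the resident sums 1120 CPM in NZO and 874.7 CPM in Cast. Most mature fat cell markers went the other way from the members, with 8 of 10 lower and 1 higher in NZO (median -0.82), among the lower ones the adiponectin gene Adipoq (-1.18 ± 0.23), and 7 of 10 higher and 1 lower in WSB (median 0.57). The exception in both strains was Lep, higher in NZO (1.54 ± 0.45) and lower in WSB (-3.16 ± 0.67). The part of fat cell markers in the member differences was not tested.

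When the mean log2 level of the 12 pan-macrophage markers was added to the edgeR fit, the differences in NZO were no longer called. They lay between -1.12 ± 0.78 for Dcstamp and 0.18 ± 0.71 for Itgax, against 1.43 to 4.27 without that term. Over all 18603 genes tested, calls in NZO in either direction fell to 3999 with that term, against 10022 without it. WSB remained lower for 4 of the 9 genes in that fit, Spp1 (-3.01 ± 0.77), Dcstamp (-1.73 ± 0.55), Trem2 (-1.71 ± 0.33) and Gpnmb (-1.25 ± 0.40). Of the 18603 genes tested 3099 were called lower in WSB there. In Cast 5 members were higher, among them Trem2 (4.22 ± 0.38, adjusted p = 8.72e-14) and Spp1 (3.88 ± 0.62, adjusted p = 6.6e-07), and Mmp12 was lower (-2.34 ± 0.92, adjusted p = 0.0283). Of all genes tested 5068 were called higher in Cast and 4503 lower. The marker mean of Cast holds Ms4a7 near 0, and with that gene left out of the mean the Cast values were lower for each member. In that fit, added after the data were seen, 4 members were higher in Cast, Trem2 (3.62 ± 0.32), Spp1 (2.96 ± 0.54), Lgals3 (0.63 ± 0.26) and Cd9 (0.55 ± 0.19). Lower were Mmp12 (-3.34 ± 0.88), Atp6v0d2 (-2.12 ± 0.67) and Itgax (-1.89 ± 0.60). With Ms4a7 left out, 5306 of all genes tested were called higher in Cast and 4838 lower. The marker mean differs between strains, so this fit describes members relative to macrophage RNA and does not remove strain from it.

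**Figure D5:**
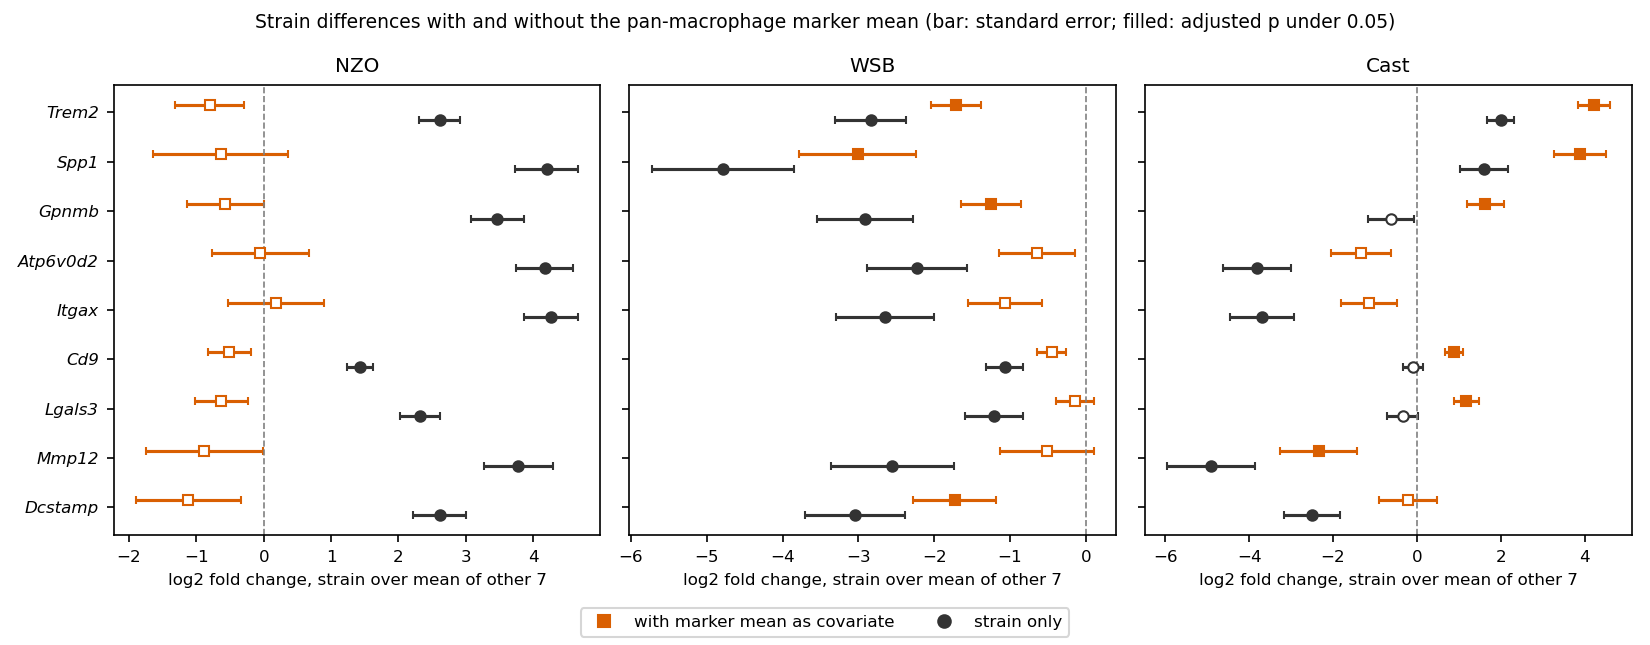
Log2 fold change of NZO, WSB and Cast over the mean of the other 7 strains (horizontal axis) for the 9 genes, from edgeR with the pan-macrophage marker mean as a covariate (squares) and with strain alone (circles). Bars are standard errors, and filled points have an adjusted p under 0.05. In NZO the squares lie around 0, from -1.12 to 0.18, and in Cast Trem2 lies at 4.22 and Spp1 at 3.88.

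Genes that act with the members moved in the same strains, given here by lists drawn up from general knowledge of these pathways with earlier results of these data known, so that their counts are no independent support. For all lists the shares of all genes tested were 27.2% higher and 26.6% lower in NZO. They were 25.6% and 23.7% in WSB, and 29.6% and 26.6% in Cast. The TREM2 signalling list rose in NZO in 11 of 11 genes (median 1.72), led by Lat2, an adaptor of immune receptors (3.25 ± 0.27), Vav1, an exchange factor (2.42 ± 0.15), Tyrobp (2.33 ± 0.16) and the kinase gene Btk (1.95 ± 0.15). In WSB 10 of 11 fell (median -0.70). Cast had Trem2 high but 8 of the 11 lower (median -0.43) and none higher, among them Tyrobp (-0.77 ± 0.21), Lat2 (-1.67 ± 0.41) and Btk (-0.97 ± 0.20). The integrin partner gene Itgb2 rose in NZO (1.93 ± 0.20) and the osteopontin receptor gene Cd44 rose there too (1.65 ± 0.21).

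Of 15 partners and receptors, 11 rose and 1 fell in NZO (median 0.59), 1 rose and 11 fell in WSB (median -0.58), and 3 rose and 9 fell in Cast (median -0.38). Itgb3, the beta chain of an osteopontin receptor, fell in NZO (-0.65 ± 0.19) and rose in Cast (1.21 ± 0.17). Timp1, an inhibitor of metalloproteinases, rose in NZO (2.05 ± 0.39) and in Cast (1.96 ± 0.41) and fell in WSB (-1.7 ± 0.53).

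Lysosomal genes rose in NZO in 20 of 23 (median 0.57) and fell in none. The cathepsin genes Ctss (2.91 ± 0.22, with 442 ± 185 CPM in NZO) and Ctsk (2.2 ± 0.16) and the macrophage lysosomal membrane gene Cd68 (2.44 ± 0.21) were among those that rose most. In WSB 10 fell and 3 rose, and in Cast 7 fell and 6 rose. Ctss fell in WSB (-1.69 ± 0.31) and in Cast (-1.79 ± 0.33).

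Lipid handling genes split in NZO, with 10 of 18 higher and 4 lower (median 0.43). Higher were the scavenger receptor genes Msr1 (2.9 ± 0.24) and Olr1 (2.86 ± 0.33) and the cholesterol ester genes Nceh1 (2.13 ± 0.19) and Soat1 (1.78 ± 0.17), and Acat2 was lower (-1.5 ± 0.26). Fat cells also express several genes of this list. WSB had 9 higher and 4 lower, and Cast 5 higher and 2 lower, among the higher ones the cholesterol exporter gene Abcg1 (1.53 ± 0.18 in Cast). The Cast counts stand beside 29.6% of all genes called higher and 26.6% lower.

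Genes of cell fusion and osteoclasts rose in NZO in 7 of the 12 tested, and Itgb3 fell. Examples are Tnfrsf11a, which encodes the RANK receptor (2.33 ± 0.19), and the signal receptor gene Sirpa (2.11 ± 0.13). In WSB 7 fell and the gelatinase gene Mmp9 rose (2.68 ± 0.37), while in Cast 7 fell, Mmp9 among them (-1.93 ± 0.58), and 3 rose. A list of 25 other genes reported for lipid-associated or disease-associated macrophages rose in NZO in 22 (median 1.45) and fell in none, led by Cd72 (4.68 ± 0.20), a lectin-like receptor gene, the chemokine genes Ccl3 (4.21 ± 0.41) and Ccl4 (4.09 ± 0.34), and the beta-glucan receptor gene Clec7a (3.57 ± 0.21). Of the same list 16 fell and 1 rose in WSB, and 11 fell and 3 rose in Cast, with Cd72 at -3.51 ± 0.39 and the collagenase gene Mmp13 at -4.26 ± 0.57.

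Genes whose pattern is like that of a member were ranked by Pearson r of log2 CPM over 61 libraries after subtracting each strain's mean, as a description. The libraries share cell makeup and Xist, so no p is given. Mmp12 and Gpnmb were closest to each other among the members (r = 0.939), and Mmp12, Itgax and Atp6v0d2 were also alike in their strain means (r = 0.975 to 0.979 over 8 strains). Tm4sf19, a tetraspanin-like gene, was nearest to Mmp12 (r = 0.942), Dpep2 was among the 5 nearest of Gpnmb (r = 0.93), Myof, which encodes myoferlin, was nearest to Cd9 (r = 0.903) and Cd180 to Spp1 (r = 0.841). Trem2 was nearest to the lysosomal mannosidase gene Man2b1 (r = 0.882) and to Myo1f (r = 0.866).

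Within strains Spp1, Cd9 and Trem2 were least like the other members, with a median r of 0.681 for Spp1, 0.716 for Cd9 and 0.735 for Trem2, against 0.817 to 0.885 for the other 6. The r of Spp1 ran from 0.554 with Trem2 to 0.71 with Itgax. Over strain means Trem2 correlated least with Mmp12 (r = 0.336), Atp6v0d2 (r = 0.368) and Itgax (r = 0.453), where Cast lies apart. Capg, an actin-capping gene, was among the 50 nearest genes of all 9 members, and Lat2 among those of 8. Of the 45 nearest genes named by this rule, 29 were also among the nearest 5 on the authors' log2 values.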

How the data were processed

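Poly(A) libraries of adipose RNA were made with an added spike-in mix, per the labels. The authors deposited expected counts per gene, that is read estimates of which 21.2% were not whole (tolerance 1e-06), and log2 values from the variance-stabilising transformation. The submitters' processing notes name DESeq2, without a version, and build GRCm38. The aligner, the counter and the way reads of wild-derived strains were aligned are not given in the sources used here. The members and gene lists were chosen with earlier results of these data known.

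Expected counts were rounded. filterByExpr by strain kept 18603 of 21169 genes, all 9 members included. edgeR 4.0.16 (R 4.3.3) took TMM factors and 1 mean per strain in a robust quasi-likelihood fit. Contrasts were the F-test over strains, a strain less the plain average of the remaining 7, 28 pairs, and slopes on log2(Xist CPM + 1), which were added after the data were seen. P-values were two-sided, adjusted by Benjamini-Hochberg over all genes tested in a contrast, with a threshold of 0.05, and ± is the SE of a log2 difference unless SD is written. Levels are TMM-scaled CPM, while marker sums and the level of Xist are scaled by library totals. Levels per kilobase use exon lengths of GENCODE M21.

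Spp1 had at least 10 counts in 51 libraries, Dcstamp in 37, Atp6v0d2 in 58, Itgax in 60 and the other 5 members in 61. Precision rests on 7 or 8 libraries a strain. The labels number the libraries but do not say in words that each is another mouse, so p-values measure the spread between libraries. The rule for named genes was the 9 members, up to 4 genes of a list with the largest absolute difference among those called, the called gene farthest the other way, the 5 genes with the highest within-strain r for each member, and Tyrobp, Itgb2, Cd44 and Lep. The text gives those that bear on the members. Alternatives were RLE factors, other filters, floored counts, DESeq2 1.42.0, limma 3.58.1 on the deposited log2 values, replicate number as a block, 2 covariates, 1 of them also without Ms4a7, and left-out libraries. Every column of per-sample values was mapped to a sample.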

Additional observations from a re-analysis of the deposited data

Results flagged for a closer look

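In 72 groups of 1 gene in 1 strain, 3 had a library far from the rest, where chance gives about 5% of such groups. Trem2 stood at 44.9 CPM in NOD replicate 6, and the other 7 NOD libraries held 11.8 to 19.2 CPM. That library also held 1348 CPM of genital duct markers and 1114 CPM of pan-macrophage markers. Itgax stood at 15.7 CPM in NZO replicate 8, against 143 to 433 CPM in the other 7 NZO libraries. Mmp12 stood at 24.9 CPM in the same library, against 166 to 413 CPM in the others.

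The slope on log2 Xist differed between NZO and the mean of the other 7 strains for each member, by the contrast of slopes in edgeR. The difference was 0.34 for Trem2, 0.51 for Itgax, 0.45 for Gpnmb and 0.22 for Cd9. It was 0.48 for Spp1, 0.32 for Lgals3 and 0.60 for Mmp12, and 0.50 for Atp6v0d2 and 0.49 for Dcstamp. NZO slopes lay above 0 and the mean of the other 7 lay below 0 for each gene.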

How the results depend on the processing

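RLE factors, floored counts, DESeq2 and no filter changed no call of a member against the other 7 strains. The pan-macrophage covariate changed most. With it the members called higher were 0 in NZO, 5 in Cast, 5 in 129, 3 in PWK and 1 in NOD, and those called lower were 4 in WSB and 1 each in Cast, PWK, AJ, B6 and NOD. Of 18603 genes tested, those higher were 1907 in NZO, 5068 in Cast, 2363 in 129, 4100 in PWK and 2689 in NOD. Those lower were 3099 in WSB, 4503 in Cast, 3274 in PWK, 2124 in AJ, 2387 in B6 and 2312 in NOD. The Xist slope difference was then called for 3 genes, and the share of all genes called for it was not counted. Signs turned in NZO for Trem2 (-0.80), Spp1 (-0.64), Gpnmb (-0.57), Atp6v0d2 (-0.05), Cd9 (-0.51), Lgals3 (-0.63), Mmp12 (-0.88) and Dcstamp (-1.12), and in Cast for Gpnmb (1.63), Cd9 (0.89) and Lgals3 (1.18). With Ms4a7 left out of that mean, a setting added after the data were seen, 0 were higher in NZO, 4 in Cast, 5 in 129 and 1 in PWK, and 4 lower in WSB. Over all genes tested 2062 were higher in NZO, 5306 in Cast, 2410 in 129 and 4149 in PWK, and 2922 lower in WSB. Signs then turned in NZO for Trem2 (-0.60), Spp1 (-0.32), Gpnmb (-0.26), Cd9 (-0.40), Lgals3 (-0.42), Mmp12 (-0.63) and Dcstamp (-0.92), and in Cast for Cd9 (0.55) and Lgals3 (0.63). Cast had 1 higher member with the replicate block, with limma on the deposited log2 values and without Cast replicates 5 and 6, Spp1 being lost. A mean CPM of at least 5 dropped Dcstamp and left 1 higher in 129 and 0 in NOD, and log2 Xist as a covariate gave 2 in NOD. Without the 6 libraries over 300 CPM of genital duct markers 0 members were higher in 129 and Trem2 in PWK (-0.81, adjusted p = 0.0615) was no longer called, and without the 6 over 500 CPM of liver markers 0 were lower in PWK. Without the 3 such libraries of 129 alone, added later too, 0 were higher in 129, 2 higher and 0 lower in B6 and 2 higher in NOD, and without the 3 of PWK alone 0 were lower in PWK. The cause was not tested.

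Leaving out 1 library at a time gave 0 to 2 members higher and 0 to 1 lower in B6, and 1 to 2 higher in Cast. Trem2 in PWK lost its call without PWK replicate 1, 2, 6 or 7 (-0.91 to -0.87). Atp6v0d2 (1.30) and Mmp12 (1.53) gained a call in B6 without B6 replicate 1, 2 or 4. Over all genes the calls in NZO fell to 3999 with the pan-macrophage covariate, against 10022 without it, and to 4292 with Ms4a7 left out of it. Those in 129 fell to 1977 without the 6 libraries rich in genital duct markers and to 2068 without the 3 of 129 alone, against 3451. The stricter filter tested 11236 genes, and its calls were 10584 in the F-test against 16718, 2068 in 129 against 3451, 2778 in AJ against 4277, 3132 in B6 against 4899, 6585 in NZO against 10022 and 5022 in PWK against 8105. The block moved Spp1 to 16 pairs called, against 14. Libraries with the same replicate number had a median r of 0.1085 in their deviations from strain means, against -0.01843 for other numbers, with 22 of 61 closest to their own number. Since not every pair exceeded 0.1 (lowest r of -0.4443) and the labels tie no number to a litter or day, the numbers were not taken as pairs. The relation of the members with Lep within a strain was not run, since libraries of a strain fell into clusters of under 6 by Xist and Lep. Low counts limit Dcstamp, with at least 10 counts in 37 of 61 libraries, and Spp1 in WSB.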

Other observations

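Some relatives and regulators of the members were also called in these strains. Among the galectins other than Lgals3, Lgals9, which encodes a galectin of immune cells, rose in NZO (0.65 ± 0.11) and fell in WSB (-0.64 ± 0.12) and Cast (-0.50 ± 0.13). Lgals12, a galectin gene of fat cells, went the other way in each, with -0.95 ± 0.26 in NZO, 0.73 ± 0.22 in WSB and 0.58 ± 0.24 in Cast. Of 5 galectin genes 2 rose and 1 fell in NZO, 3 rose and 2 fell in WSB, and 2 rose and 2 fell in Cast.

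The MiT/TFE list holds transcription factors of lysosomal genes and proteins that control them. In NZO 4 of 6 rose, Tfec (1.32 ± 0.25), Mitf (0.88 ± 0.12), Tfeb (0.65 ± 0.07) and Tfe3 (0.43 ± 0.05). In WSB 2 of 6 rose, Flcn (0.93 ± 0.09) and Fnip1 (0.33 ± 0.10). In Cast Flcn (0.66 ± 0.10), Fnip1 (0.75 ± 0.10) and Mitf (0.46 ± 0.13) rose and Tfeb fell (-0.19 ± 0.08). Lysosomal genes had called Xist slopes above 0 for 18 of 23 in NZO, and 20 of 23 had a higher slope there than the mean of the other 7 strains. Mesothelial markers fell in NZO in 8 of 8 genes (median -1.96) and rose in Cast in 7 of 8 (median 0.98). Cell division markers rose in NZO in 6 of 6 (median 2.27) and fell in Cast in 6 of 6 (median -2.2).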
